A study of Mus musculus with 12 samples.

Results

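The 30 genes described here code for the NF-kappaB transcription factors, the proteins that hold them in the cytoplasm or act with them in the nucleus, the kinases, adaptors and ubiquitin enzymes that switch them on and off, and one early response gene that they are known to induce. They were chosen by gene symbol from the 24421 genes of the authors' deposited comparison of CD8 T cells, and all 30 were found, had reads in every library and were tested. The series sequenced polyadenylated RNA of sorted spleen cells from C57BL/6 mice of genotype cTKO and of genotype WT, in 12 samples that make 6 groups of 2 animals (B lymphocytes and CD4+ and CD8+ T lymphocytes of each genotype). The deposited table holds the CD8+ T cells, with 1 female and 1 male cTKO mouse set against 1 female and 1 male WT mouse, and 500000 sorted cells per sample, per the labels. The series is about H1 linker histones, and the alleles behind the name cTKO, the driver of any deletion, the ages of the mice and any treatment are not given in the labels. The other 2 cell types were not analysed here.

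In resting lymphocytes NF-kappaB dimers are kept inactive in the cytoplasm by IkB proteins. Signals from the antigen receptor or from receptors of the tumour necrosis factor family act through TRAF adaptors and ubiquitin chains on the IKK complex, which marks IkB for destruction and frees the dimer to enter the nucleus. Several inhibitors, among them IkB-alpha and the ubiquitin-editing enzyme A20, are themselves induced by NF-kappaB and so form feedback loops.

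From the deposited means, fold changes and standard errors the whole reads of each library were recovered, with exactly 1 solution for each of the 30 genes. The table does not name its libraries, so each genotype has a larger and a smaller one here, with 13643821 and 9385655 recovered reads in cTKO and 15188277 and 10260713 in WT. Reads of 4 Y-linked genes lay in the smaller library of each genotype alone (Ddx3y had 1652 reads in that of cTKO, against 1904 in that of WT, and 0 in both larger libraries), so library size and sex cannot be told apart. Hist1h1c, Hist1h1d and Hist1h1e, which code for linker histones, had 0 reads in both cTKO libraries, while Hist1h1e had 64 and 112 reads in the WT libraries. The direction of the deposited fold change is read from these genes as cTKO over WT. The larger cTKO library stood apart from the rest: 1165 genes had their single read of the whole table in it, against 156 in the smaller cTKO library and 102 and 97 in the WT libraries. Cd8a and Cd8b1, the CD8 co-receptor chains, averaged 20303 and 31813 normalized counts over the 4 libraries in the authors' deposited table. In bulk RNA, fewer cells of a type and less RNA per cell cannot be told apart.

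Of the 30 genes, 1 was higher and 2 were lower in cTKO at an adjusted p under 0.05 by the authors' deposited table. Ier3, an early response gene, was higher, and Ikbke, which codes for the IKK-related kinase IKK-epsilon, and Traf5, an adaptor of tumour necrosis factor receptors, were lower. Over all 12972 tested genes 9.77% were called higher and 3.61% lower in the same table, so 1 and 2 of 30 are not a result about the group. In normalized counts (reads divided by the size factor of the library), 4 genes had both cTKO libraries above both WT libraries, where 31.5% of the 12755 tested genes with recovered reads did. For 18 of the 30 genes both libraries from cTKO were under both from WT, a share of 60.0%, where 28.1% of all genes did so and 35.6% of the genes whose mean lay in the range of the 30. The median log2 fold change in the authors' deposited table was -0.28 over the 30 genes, 0.04 over all tested genes and -0.12 over tested genes in that range of means. Fold changes were below 0 in 22 of the 30 genes, and in 21 once all were set against the median of genes whose mean is 100 or more, which was -0.10. These counts describe a list chosen with earlier results known, and no test was made of the list.

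**Figure D1:**
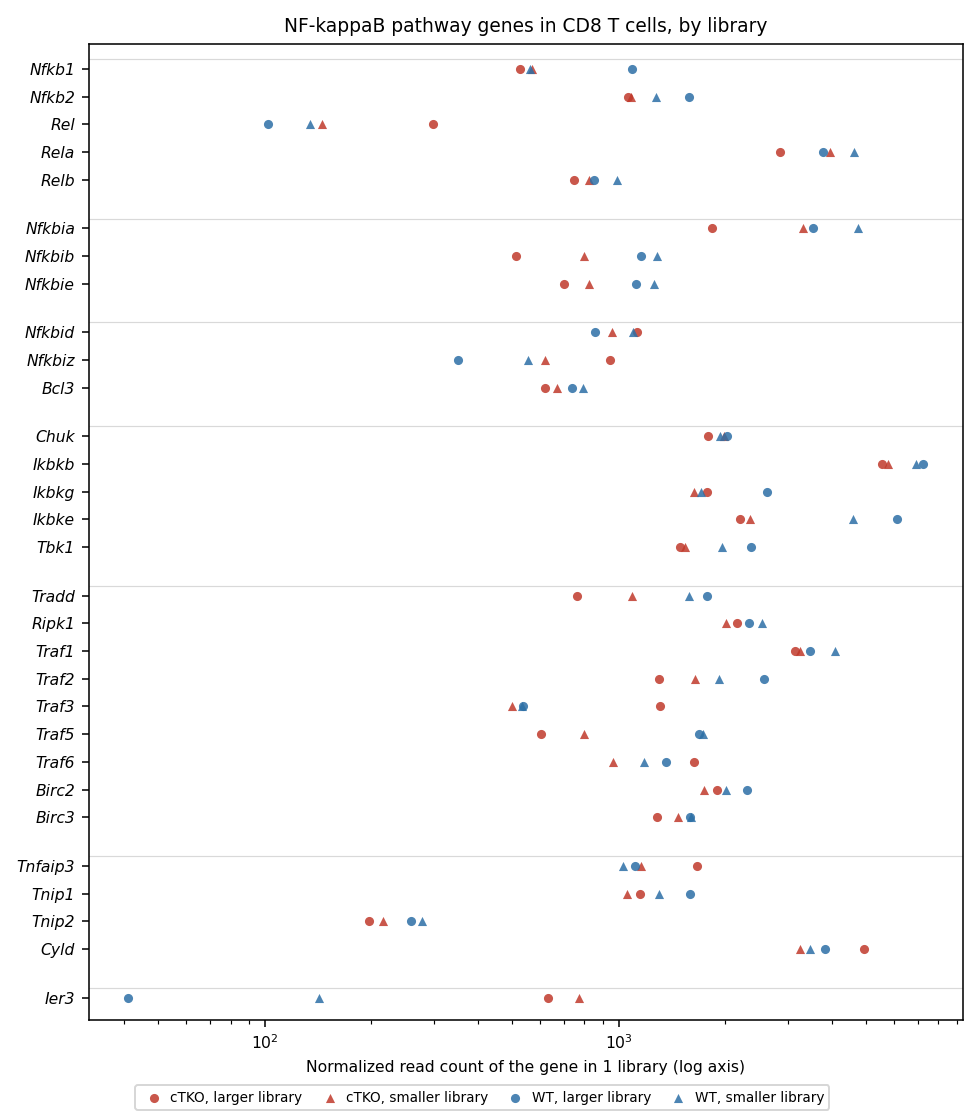
Normalized read counts (log axis) of the 30 genes in the 4 CD8 T cell libraries, with cTKO in red and WT in blue, circles for the larger and triangles for the smaller library of each genotype; rows are grouped by role from Rel subunits at the top to Ier3 at the bottom. Ier3 has 633 and 774 in the cTKO libraries and 41.2 and 142 in the WT libraries, and for most other genes the red points lie left of the blue ones or among them.

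The target gene Ier3 showed the widest gap of the 30 genes. Ier3 (chr17:35821713-35822911, RefSeq on GRCm38.p6) codes for a small protein that is induced early after stimulation, in part through NF-kappaB, and acts on cell survival. It had 764 and 623 reads in the larger and smaller cTKO library, against 50 and 123 reads in the larger and smaller WT library. In normalized counts these were 633 and 774 in cTKO and 41.2 and 142 in WT. Both cTKO libraries were above both WT libraries, and the WT libraries differed from each other by a larger ratio than the cTKO libraries did. The log2 fold change was 2.95 (SE 0.49, 7.74-fold higher, adjusted p 8.77e-08) by the authors' deposited table. A limma fit on the recovered reads gave 3.33 with the larger cTKO library left out and 3.04 with the smaller cTKO library left out. The call did not stand without either of them. Over the whole table limma then called far fewer genes higher than the authors did, so this loss is not particular to Ier3. The call stood without the larger WT library, with a log2 fold change of 2.30 (adjusted p 0.0236), and without the smaller WT library, with 4.07 (adjusted p 7.26e-04), so the size of the difference rests on which WT library is used.

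Ikbke, the kinase gene that was lower, had 2655 and 1888 reads in the larger and smaller cTKO library, against 7421 and 3980 in the larger and smaller WT library. Its product, IKK-epsilon, is related to the IKK catalytic subunits and is best known for its part in interferon induction beside TBK1. The normalized counts were 2199 and 2345 in cTKO and 6111 and 4596 in WT. Both cTKO libraries were below both WT libraries, and the cTKO libraries lay closer to each other than the WT libraries did. The log2 fold change was -1.24 (SE 0.30, adjusted p 9.21e-04) by the authors' deposited table. Ikbke lies at chr1:131254600-131279601 (RefSeq on GRCm38.p6).

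Traf5, the adaptor gene that was lower, lies on the same chromosome at chr1:191997203-192092599 (RefSeq on GRCm38.p6). It had 730 and 643 reads in the larger and smaller cTKO library, against 2050 and 1495 in the larger and smaller WT library. The normalized counts were 605 and 799 in cTKO and 1688 and 1726 in WT, with no overlap between the genotypes. Its product carries signals of receptors such as CD27, CD40 and OX40. The log2 fold change was -1.28 (SE 0.32, adjusted p 9.72e-04) by the authors' deposited table.

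With any 1 of the 4 libraries left out, limma on the recovered reads called neither Ikbke nor Traf5. Over the whole table limma then called far fewer genes lower than the authors did, so the lost calls are not particular to these genes. For Ikbke the log2 fold change lay between -1.43 and -1.02, and for Traf5 it lay between -1.50 and -1.10. Both genes have annotated antisense genes whose exons cover at most 1.76% of the exon bases of Ikbke for 1 such gene and 4.49% of those of Traf5, and reads of either strand cannot be told apart where the strand handling is not given.

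**Figure D2:**
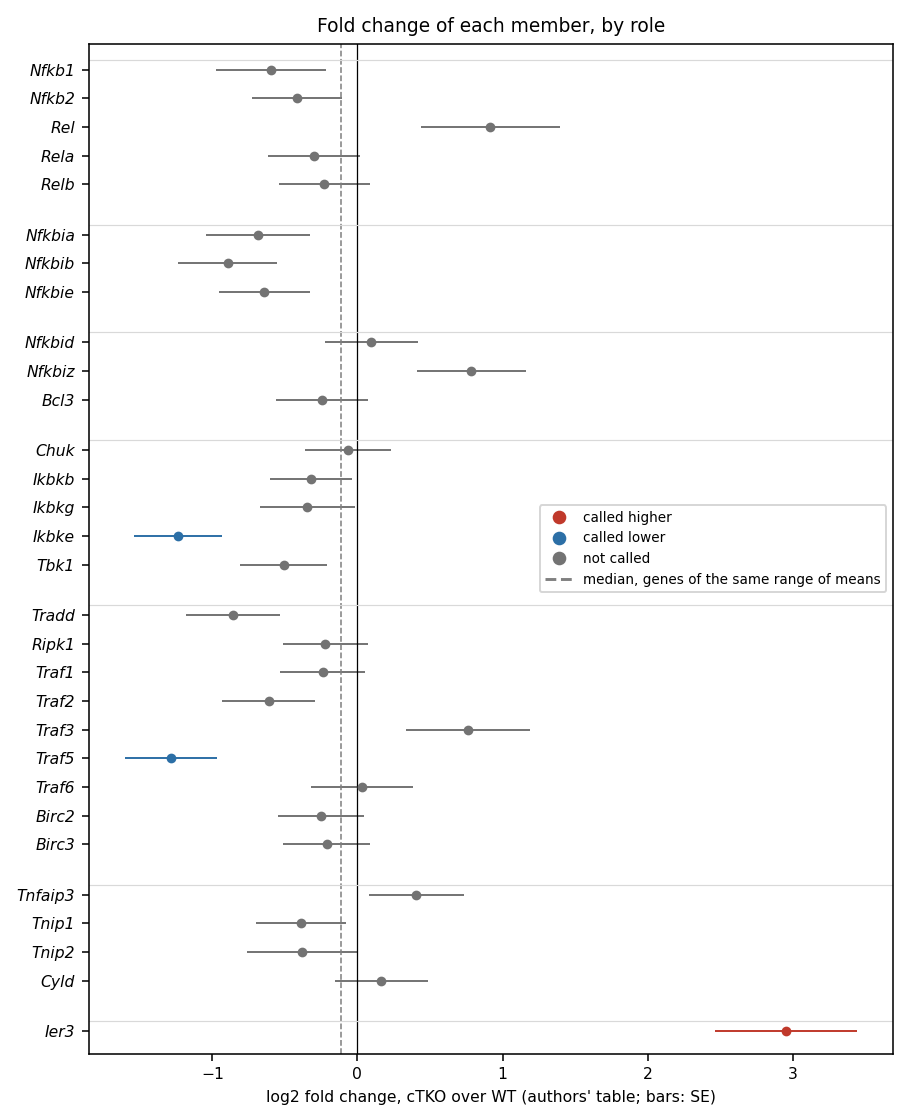
Log2 fold change, cTKO over WT, of each of the 30 genes in the authors' deposited table, with bars for 1 standard error, grouped by role; the dashed line marks the median of tested genes in the same range of means, -0.12. Ier3 stands at 2.95, Ikbke at -1.24 and Traf5 at -1.28, and the 27 genes not called lie between -0.89 and 0.92.

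The promoters of the 3 called genes are shown next to those of Nfkbia and Tnfaip3, the genes of the classical feedback inhibitors IkB-alpha and A20, because feedback genes are known for kappaB sites close to their start. Each sequence is the 250 bases before an annotated transcript start, read 5′ to 3′ on the strand of the gene, from RefSeq on GRCm38.p6, with capitals where the letters match the kappaB consensus on either strand. The windows are chr17:35821463-35821712 on the plus strand for Ier3, and, on the minus strand, chr1:131279564-131279813 for Ikbke, chr1:192092600-192092849 for Traf5, chr12:55492648-55492897 for Nfkbia and chr10:19015411-19015660 for Tnfaip3. The window of Ikbke reaches 38 bases into the gene as placed above, and the other windows end where the gene begins.
Ier3: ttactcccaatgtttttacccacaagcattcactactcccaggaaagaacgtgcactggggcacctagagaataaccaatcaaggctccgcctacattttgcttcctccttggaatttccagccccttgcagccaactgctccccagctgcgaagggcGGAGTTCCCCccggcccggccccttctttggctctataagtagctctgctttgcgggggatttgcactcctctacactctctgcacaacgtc
Ikbke: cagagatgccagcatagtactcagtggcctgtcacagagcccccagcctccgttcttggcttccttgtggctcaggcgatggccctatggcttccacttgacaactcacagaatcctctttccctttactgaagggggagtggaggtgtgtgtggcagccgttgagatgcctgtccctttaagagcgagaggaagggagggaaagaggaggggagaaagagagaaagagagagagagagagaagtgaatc
Traf5: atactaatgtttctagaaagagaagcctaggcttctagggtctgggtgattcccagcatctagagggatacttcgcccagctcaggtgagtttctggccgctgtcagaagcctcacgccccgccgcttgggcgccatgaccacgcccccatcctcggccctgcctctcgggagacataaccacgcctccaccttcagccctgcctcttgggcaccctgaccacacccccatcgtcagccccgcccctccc
Nfkbia: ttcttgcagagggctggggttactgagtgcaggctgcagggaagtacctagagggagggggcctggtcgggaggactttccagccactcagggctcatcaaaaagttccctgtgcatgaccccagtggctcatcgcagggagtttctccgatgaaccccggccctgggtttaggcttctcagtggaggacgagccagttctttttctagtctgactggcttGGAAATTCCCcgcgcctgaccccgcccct
Tnfaip3: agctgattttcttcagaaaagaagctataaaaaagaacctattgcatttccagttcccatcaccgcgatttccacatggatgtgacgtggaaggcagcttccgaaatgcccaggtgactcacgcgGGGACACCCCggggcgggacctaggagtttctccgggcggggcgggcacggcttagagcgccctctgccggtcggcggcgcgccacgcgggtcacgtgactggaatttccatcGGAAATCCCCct

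Ier3 held 1 match, which begins 92 bases before the start, and Nfkbia held 1 match, which begins 29 bases before it. Tnfaip3 held 2 matches, which begin 125 and 12 bases before the start, and the first of these reads as a match on both strands. The windows of Ikbke and Traf5 held no match to these letters. Promoter windows were found for 25 of the 30 genes, and 10 of the 25 genes (40.0%) had a match in at least 1 window, where 8.23% of 27025 genes with a window did. The 10 were Cyld, Ier3, Nfkb2, Nfkbia, Nfkbid, Nfkbie, Rel, Tnfaip3, Tnip1 and Traf3. Among them the log2 fold change in the authors' deposited table was above 0 in 6 and below 0 in 4, with a median of 0.13. In the smaller pair of libraries alone the log2 ratio, cTKO over WT, was above 0 in 3 of these 10 (Ier3, Rel and Tnfaip3), since Cyld, Nfkbid and Traf3 were above 0 only in the pair with the larger cTKO library, which stood apart. Among the 15 genes without a match the log2 fold change in the authors' deposited table was above 0 in 1, Traf6, and below 0 in 14, with a median of -0.30. It was below 0 in 48.1% of all tested genes and in 57.8% of those in the range of means of the 30. In the smaller pair alone the log2 ratio of these 15 genes was above 0 in 1, Chuk (0.04), and below 0 in 14. A match is a description of letters, and no test was made of these counts. Sites outside the windows or with other letters are not counted, so genes without a match are not shown to lack kappaB sites.

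The cytoplasmic inhibitors were lower in both cTKO libraries, and none of them passed the test, and 2 of the 3 had an unadjusted p under 0.05, as did 26.3% of all tested genes. Nfkbia, which codes for IkB-alpha, had 1832 and 3326 normalized counts in the larger and smaller cTKO library, against 3541 and 4742 in the larger and smaller WT library. The highest cTKO library was just under the lowest WT library, and the spread within each genotype was wide (log2 fold change -0.68, SE 0.36, adjusted p 0.202 by the authors' deposited table). Nfkbib, which codes for IkB-beta, had 514 and 800.0 in cTKO and 1154 and 1286 in WT, and a log2 fold change at -0.89 (SE 0.34, adjusted p 0.0610 by the authors' deposited table). Nfkbie, which codes for IkB-epsilon, had 698 and 826 in cTKO and 1119 and 1259.8 in WT, and a log2 fold change at -0.64 (SE 0.31, adjusted p 0.167 by the authors' deposited table). For all 3 genes the cTKO libraries lay below the WT libraries, and the larger cTKO library was the lowest of the 4. Both cTKO libraries were below both WT libraries in 28.1% of all tested genes with recovered reads. The share was 35.6% in the range of means of the whole list, and the 3 genes were not tested as a set. Per kilobase of exon the 3 genes summed to 1604 and 2706 normalized counts in the larger and smaller cTKO library, against 3099 and 3952 in the larger and smaller WT library. Exons of Ccer2, on the opposite strand, cover 14.5% of the exon bases of Nfkbib, and their reads cannot be told apart here.

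Of the nuclear IkB proteins, which bind NF-kappaB on DNA and modify its output, 2 had fold changes above 0 and 1 below, and none passed (1 at an unadjusted p under 0.05). Nfkbiz, which codes for IkB-zeta, a co-activator of secondary response genes, had 944 and 617 normalized counts in the larger and smaller cTKO library, against 352 and 555 in the larger and smaller WT library. The genotypes did not overlap, but the smaller libraries lay close together (log2 fold change 0.79, SE 0.38, adjusted p 0.159 by the authors' deposited table). Bcl3, which acts with p50 and p52 dimers, had 619.5 and 669.6 in cTKO and 737 and 789.8 in WT. Its log2 fold change in the authors' deposited table was -0.24 (adjusted p 0.673). Nfkbid, which codes for IkB-NS, had 1123 and 959 in cTKO and 857 and 1095 in WT, and the genotypes overlapped.

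The Rel subunits themselves did not pass the test either, also with 0 at an unadjusted p under 0.05, and Rel differed in direction from the other 4. Rel codes for c-Rel, the subunit most tied to activated lymphocytes, and had 298 and 145 normalized counts in the larger and smaller cTKO library, against 102 and 134 in the larger and smaller WT library. Both cTKO libraries were above both WT libraries, yet the smaller cTKO library was close to the smaller WT library (log2 fold change 0.92, SE 0.48, adjusted p 0.201 by the authors' deposited table). With the larger cTKO library left out, limma gave a log2 fold change of 0.31 for Rel. Nfkb1, which codes for p105 and its product p50, had 524 and 569 in cTKO and 1088 and 562 in WT, so that only the larger WT library was high (log2 fold change -0.60, adjusted p 0.320 by the authors' deposited table). Nfkb2, the gene of p100 and p52 of the non-canonical branch, had 1062 and 1082 in cTKO and 1583 and 1275 in WT. Its log2 fold change in the authors' deposited table was -0.41 (adjusted p 0.409). Relb, whose product pairs with p52, had 745 and 824 in cTKO and 849 and 988 in WT, without overlap and with a log2 fold change of -0.23 (adjusted p 0.694 by the authors' deposited table). Rela, which codes for p65, the main transactivating subunit of the canonical branch, had 2857 and 3959 in cTKO and 3779.6 and 4606 in WT, and the genotypes overlapped.

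Among the kinases, fold changes lay below 0 for all 5 genes, also relative to genes whose mean is 100 or more for 4 of them, and Ikbke alone passed. Ikbkb, which codes for the catalytic subunit IKK-beta of the canonical branch, had 5559.9 and 5774 normalized counts in the larger and smaller cTKO library, against 7259 and 6911 in the larger and smaller WT library. The genotypes did not overlap, with a log2 fold change of -0.32 (adjusted p 0.499 by the authors' deposited table). Tbk1, the closest relative of Ikbke, had 1494 and 1542 in cTKO and 2362 and 1954 in WT, again without overlap (log2 fold change -0.51, adjusted p 0.277 by the authors' deposited table). Ikbkg, which codes for the regulatory subunit NEMO, had 1772 and 1632 in cTKO and 2621 and 1708 in WT. Chuk, which codes for IKK-alpha, had 1788 and 1980.2 in cTKO and 2017 and 1926 in WT. For Ikbkg and Chuk the genotypes overlapped. Per kilobase of exon the 5 kinase genes summed to 1487 and 1548 normalized counts in the larger and smaller cTKO library, against 2382 and 1961 in the larger and smaller WT library.

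Among the 9 adaptors and ubiquitin ligases, 7 genes had both cTKO libraries below both WT libraries, and Traf5 alone passed. Both cTKO libraries also lay below both WT libraries in 28.1% of all tested genes with recovered reads. In the range of means of the whole list the share was 35.6%, and no test was made of the 7. Tradd, the death domain adaptor of tumour necrosis factor receptor 1, had 764 and 1091 normalized counts in the larger and smaller cTKO library, against 1770.4 and 1584 in the larger and smaller WT library. It came nearest to a call of the 27 genes that did not pass (log2 fold change -0.86, SE 0.32, adjusted p 0.0587 by the authors' deposited table). Traf2, which recruits the ligases cIAP1 and cIAP2 to the receptor complex, had 1301 and 1644 in cTKO and 2577 and 1917 in WT, with a log2 fold change of -0.61 (adjusted p 0.204 by the authors' deposited table). Ripk1, the kinase that serves as a ubiquitin scaffold in that complex, had 2157 and 2012.5 in cTKO and 2329.5 and 2537 in WT. Traf1, a TRAF protein without a RING domain, had 3151 and 3247 in cTKO and 3463 and 4085 in WT. The genes of the ligases, Birc2 for cIAP1 and Birc3 for cIAP2, had 1897 and 1735 in cTKO against 2309.7 and 2015 in WT for Birc2, and 1285 and 1467 in cTKO against 1588 and 1599 in WT for Birc3. The log2 fold changes of these last 4 genes in the authors' deposited table lay between -0.25 (Birc2, adjusted p 0.636) and -0.21 (Birc3).

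Traf3 and Traf6 were the adaptors whose genotypes overlapped. Traf3, which together with TRAF2 and the cIAPs holds the non-canonical branch off, had 1310.3 and 499 normalized counts in the larger and smaller cTKO library, against 538 and 531 in the larger and smaller WT library. Only the larger cTKO library was high, and the log2 fold change of 0.76 (SE 0.43, adjusted p 0.244 by the authors' deposited table) turned to -0.10 by limma without that library. Traf6, the ligase downstream of interleukin 1 and Toll-like receptors, had 1636 and 960.3 in cTKO and 1359 and 1181 in WT. The larger cTKO library was again the highest of the 4 and the smaller cTKO library the lowest.

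Among the deubiquitinases and the partners of A20, no gene passed, and 0 had an unadjusted p under 0.05. Tnfaip3, which codes for A20, had 1669 and 1159 normalized counts in the larger and smaller cTKO library, against 1108 and 1027 in the larger and smaller WT library. Both cTKO libraries were above both WT libraries, most of the gap lay in the larger one, and the log2 fold change was 0.41 (SE 0.33, adjusted p 0.448 by the authors' deposited table). Tnip1 and Tnip2 code for ABIN-1 and ABIN-2, which bind A20. Tnip1 had 1145 and 1055 in cTKO and 1585 and 1298 in WT, and Tnip2 had 196 and 216 in cTKO and 259 and 277 in WT. Neither gene's genotypes overlapped, with log2 fold changes of -0.39 (adjusted p 0.440) and -0.38 (adjusted p 0.564) by the authors' deposited table. Cyld, which codes for a deubiquitinase of the chains that recruit IKK, had 4928 and 3252 in cTKO and 3837 and 3466 in WT, and the genotypes overlapped.

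Differences between libraries of 1 genotype bear on these values. The larger cTKO library exceeded the smaller by more than 1.5 times for 5 of the 30 genes (Rel, Nfkbiz, Traf3, Traf6 and Cyld), and the smaller exceeded the larger by as much for 2 (Nfkbia and Nfkbib). In WT each direction held for 2 genes. Over the 12755 tested genes with recovered reads these shares were 24.9% and 16.8% in cTKO, against 11.6% and 11.3% in WT, and over those in the range of means of the 30 they were 17.2% and 17.5% in cTKO, against 5.38% and 5.00% in WT. The larger cTKO library held the lowest or the highest value for most of the 30 genes. These included the cytoplasmic inhibitors, Rel, Nfkbiz and Traf3, and also the genes called lower, Ikbke (2199 normalized counts) and Traf5 (605). The exceptions were Ikbkg, Ripk1, Birc2, Tnip1 and Ier3. Where the genotypes do not overlap, as for Ikbke and Traf5, a cTKO library always holds such a value. How often this holds for the larger cTKO library over all genes, or for the other libraries, was not counted.

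The 30 genes also differ in level, which can be compared per kilobase of exon (GENCODE vM21). Averaged over the 4 libraries, Nfkbia was highest with 2087 normalized counts per kilobase, followed by Rela with 1237 and Tradd with 698. Rel was lowest with 22.8, followed by Nfkb1 with 56.9 and Tnip2 with 88.4. The length of a gene here joins the exons of all its annotated transcripts (12.1 kilobases for Nfkb1), so these ranks depend on the annotation. Per kilobase Ier3 had 559 and 684 in the larger and smaller cTKO library, against 36.4 and 126 in the larger and smaller WT library.

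**Figure D3:**
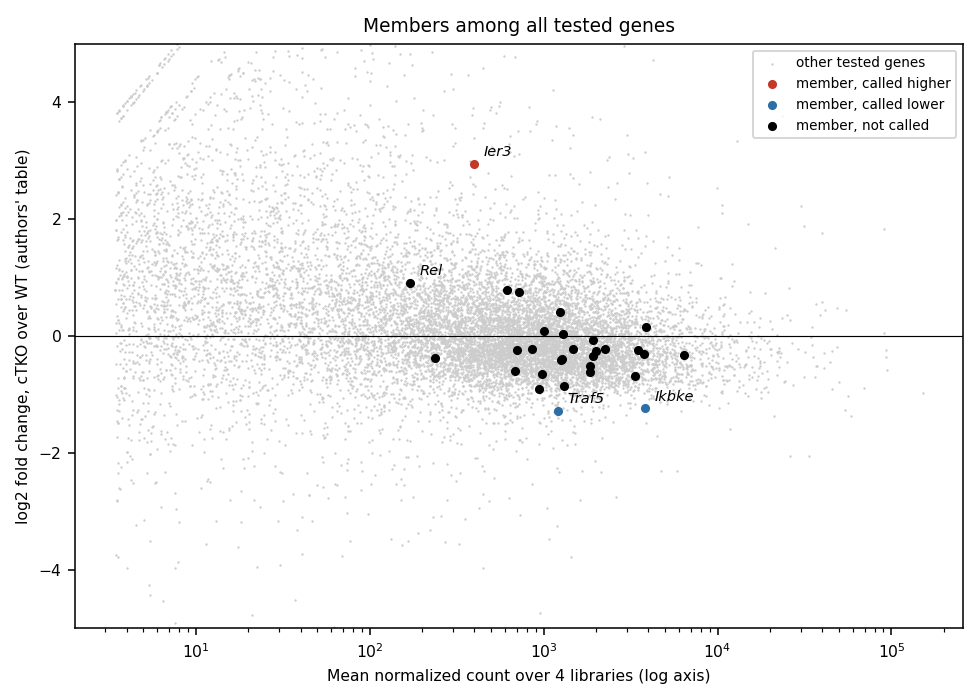
Log2 fold change, cTKO over WT (authors' deposited table), against the mean normalized count over the 4 libraries (log axis), with the 30 genes in colour or black over all other tested genes in grey; 346 tested genes beyond 5 in either direction are outside the axis. Ier3, at 2.95 with a mean of 397, lies far above the others, and the rest run in the middle of the cloud between -1.28 and 0.92.

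The signalling genes that feed into these steps gave calls in both directions. Of 28 tested kinases and adaptors upstream of IKK, 5 were higher and 1 was lower in the authors' deposited table, where 9.77% and 3.61% of all genes were, with a median log2 fold change of -0.07. Limma called 0 of these genes without the larger cTKO library and 0 without the smaller cTKO library. Tbkbp1, which codes for an adaptor of TBK1 and IKK-epsilon, had 186 and 78.3 normalized counts in the larger and smaller cTKO library, against 9.06 and 13.9 in the larger and smaller WT library (log2 fold change 3.55, SE 0.67, adjusted p 4.91e-06 by the authors' deposited table). Nod1, an intracellular receptor of bacterial wall fragments, had a log2 fold change at 1.53 (SE 0.30, adjusted p 1.56e-05 by the authors' deposited table). Tab3, a ubiquitin-binding partner of the kinase TAK1, had 1.95 (SE 0.50, adjusted p 0.00156 in that table), and Map3k8, the kinase Tpl2 that p105 holds inactive, had 1.30 (SE 0.37, adjusted p 0.00630 by the authors' deposited table). Malt1, the protease of the complex that links the antigen receptor to IKK, was the fifth gene that rose, with a log2 fold change of 1.06 (adjusted p 0.0331 by the authors' deposited table). Irak3, a brake on Toll-like receptor signals, was the gene that fell, with 6 and 9 reads in the larger and smaller cTKO library, against 99 and 25 in the larger and smaller WT library (adjusted p 0.0177 by the authors' deposited table).

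Of 25 tested genes of linear ubiquitin chains and other regulators, 2 were higher and 2 lower (9.77% and 3.61% over all genes), with a median log2 fold change of -0.05 by the authors' deposited table. N4bp1, whose product binds ubiquitin chains and dampens NF-kappaB signals, had 2270.2 and 1771.5 normalized counts in the larger and smaller cTKO library, against 296 and 300.2 in the larger and smaller WT library (log2 fold change 2.76, SE 0.32, adjusted p 8.07e-16 by the authors' deposited table). Nlrc5, an activator of MHC class I genes, rose by 1.22 on the log2 scale (SE 0.39, adjusted p 0.0182 by the authors' deposited table). Peli1, a ubiquitin ligase that restrains T cell activation, and Ppp4c, the catalytic subunit of protein phosphatase 4, had log2 fold changes of -1.58 (SE 0.36, adjusted p 2.71e-04) and -0.97 (SE 0.34, adjusted p 0.0369) by the authors' deposited table.

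Genes known as NF-kappaB targets in lymphocytes did not move as one group. Of 39 tested, 9 rose, 5 fell and 25 did not pass, where 9.77% of all genes rose and 3.61% fell, with a median log2 fold change of 0.31 by the authors' deposited table. The rising genes with the smallest p were the chemokine gene Ccl5, the transcription factor gene Bhlhe40, the hyaluronan receptor gene Cd44 and Plek, which codes for the signalling protein pleckstrin, with log2 fold changes of 3.76, 3.92, 2.56 and 2.07 in that table. The falling genes with the smallest p were Cd83, an activation antigen, the AP-1 subunit gene Junb, the lymphotoxin gene Ltb and the quiescence gene Slfn2, with log2 fold changes of -3.51, -1.14, -1.37 and -0.98 by the authors' deposited table. Cd83 had 25 and 27 reads in the larger and smaller cTKO library, against 481 and 184 in the larger and smaller WT library.

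Other early response genes, which also rise while cells are handled, were lower where they passed, unlike Ier3. Junb, Zfp36, Myc and Gadd45b are on this list and also on that of the target genes, and Junb counts as lower in both. Of 28 tested, the authors' deposited table called 0 higher and 12 lower, where it called 9.77% and 3.61% of all genes, and limma on the recovered reads also called 0 higher (17 had an unadjusted p under 0.05, all of them lower, where 26.3% of all genes had one), with a median log2 fold change of -0.94. Egr2 and Egr1, transcription factor genes induced through the antigen receptor, had log2 fold changes of -2.94 and -2.32, and Dusp1, a MAP kinase phosphatase gene, and Nr4a1, an orphan nuclear receptor gene, both had -2.08 by the authors' deposited table. Egr1 had 387 and 405 reads in the larger and smaller cTKO library, against 2334 and 1895 in the larger and smaller WT library. With the larger cTKO library left out limma called 0 genes of this list, as it did without the smaller cTKO library, and 6 and 4 without the larger and the smaller WT library.

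**Figure D4:**
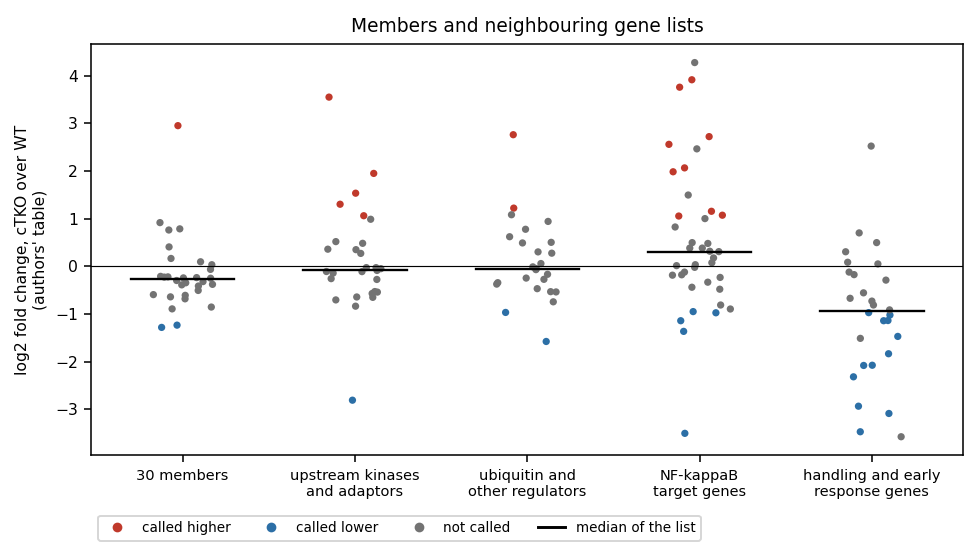
Log2 fold change, cTKO over WT (authors' deposited table), of the 30 genes and of the tested genes of 4 related lists, 1 point per gene, red where called higher, blue where called lower and grey where not called; black bars mark the medians, which are -0.28, -0.07, -0.05, 0.31 and -0.94 from left to right. Sideways scatter within a column only separates the points. Genes on more than 1 list, such as Junb, have a point in each.

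Markers of other cell types differed between the genotypes as well, where 9.77% of all tested genes were called higher and 3.61% lower. Of 9 natural killer cell markers 6 were higher and 1 was lower in the authors' deposited table, and the list summed to 10528 and 9574 normalized counts in the larger and smaller cTKO library, against 1609.8 and 1793 in the larger and smaller WT library. Most of these sums came from Eomes and Gzma. Eomes had 4757 and 4719 in cTKO and 902 and 1336 in WT, and Gzma had 3093 and 2347 in cTKO and 362 and 134 in WT. The list holds 3 Ly49 genes (Klra3, Klra4 and Klra8), a family of near-identical copies whose reads are uncertain. Ncr1, which marks natural killer cells most closely, had 22 and 1 reads in cTKO and 2 and 4 in WT. Fcer1g, the marker of this list that was lower, had 10 and 9 reads in cTKO and 94 and 41 in WT. Of 8 tested myeloid and dendritic cell markers 2 were higher, the integrin genes Itgax and Itgam. The myeloid and dendritic cell list summed to 2639.6 and 914 normalized counts in cTKO and 183 and 143 in WT. Most of the cTKO sums came from Itgax, which had 2012 and 632 in cTKO and 46.1 and 50.8 in WT. Fcgr3, on the same list, went the other way without a call, with 1 and 0 reads in cTKO and 28 and 11 in WT. Lyz2, a lysozyme gene of myeloid cells, had 43 and 6 reads in cTKO and 20 and 11 in WT, and all 22 reads of S100a8 came from the larger cTKO library. Of 10 tested B cell markers 4 were lower, and the list summed to 1331 and 534 in cTKO and 2507 and 2406 in WT. Cd22 and Ms4a1, on the same list, had log2 fold changes above 0 (1.30 and 0.23) and were not called. Cd22 had 748 and 47.2 normalized counts in cTKO and 171 and 151 in WT, and made up most of the sum in the larger cTKO library. Pax5, which codes for a transcription factor that defines B cells, had 1 read, in the smaller cTKO library. Of 12 T cell markers Lat alone passed, with a log2 fold change of -1.19 by the authors' deposited table. Among 4 tested markers of CD4 and regulatory T cells 1 was higher, and among 4 of erythroid cells and platelets 1 was lower. The part of these markers in the values of Ier3, Ikbke and Traf5 was not tested.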

How the data were processed

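Polyadenylated RNA of 4 CD8+ T cell samples was compared in 1 table, which the authors made with STAR and DESeq2 on builds mm10 and GRCm38.p6, per the submitters' processing notes. Versions, the counting tool, the annotation and strand handling are not given in the sources used. Each mean normalized count is a signal that the authors deposited, read counts divided by size factors and averaged over the 4 libraries. Fold changes on the log2 scale with their standard errors, the test score (fold change over standard error) and each p-value, raw and adjusted, are those the authors deposited. Calls are the authors' own, at an adjusted p under 0.05. The headers give no direction, which was read from the linker histone genes.

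Reads per library were searched for as whole numbers that meet the deposited mean to its 10 significant digits and, in a negative binomial fit with the deposited standard error, the fold change within 7e-10. Of 17954 genes with a mean under 10000, 17936 had exactly 1 solution. On simulated reads, 1076 of 1076, 1155 of 1155 and 607 of 607 genes in 3 ranges of the mean were recovered correctly. Libraries were matched to the labels by sex, from reads of Y-linked genes. With 2 animals a group, each p-value rests on a spread between animals that is poorly known. The limma fits also draw in part on the spread of other genes.

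Alternatives used limma 3.58.1 in R 4.3.3 on log2 of reads over size factors plus 0.5, with a trend, or re-adjusted the deposited p-values by Benjamini-Hochberg. Promoters are RefSeq windows, and gene lengths are unions of GENCODE vM21 exons. The genes, lists, rules and alternatives were chosen with earlier results of these data known. Described with normalized counts and the deposited fold change were genes called, with a difference of at least 1.5-fold or without overlap (24 of 30). Of each related list, up to 4 called genes in each direction were named by smallest p, and Malt1 was added as the only other call of its list, after its value was seen.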

Additional observations from a re-analysis of the deposited data

Results flagged for a closer look

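For 6 of the 30 genes the larger (female) libraries and the smaller (male) libraries moved in opposite directions, cTKO against WT. Each is given as the log2 ratio in the larger pair, that in the smaller pair and their difference, and none of the differences was tested, since each pair holds 1 library per genotype. Traf3 had 1.28 in the larger pair and -0.09 in the smaller, a difference of 1.37. Nfkb1 had -1.05 and 0.02, a difference of -1.07. Nfkbid had 0.39 and -0.19, a difference of 0.58, and Traf6 had 0.27 and -0.30, a difference of 0.57. Cyld had 0.36 and -0.09, a difference of 0.45. Chuk had -0.17 and 0.04, a difference of -0.21. None of the 6 genes was called in the authors' deposited table, and the other 24 genes moved the same way in both pairs. Sex, library size and the animal cannot be told apart in these pairs.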

How the results depend on the processing

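Ier3 as the gene called higher, and Ikbke and Traf5 as those called lower, were the same under no filter on the mean, a mean of at least 10, re-centring, limma with a pseudocount of 0.5 or 2, and limma with sex as a replicate block. With 1 library left out, limma called 0 to 1 of the 30 genes higher and 0 to 0 lower, 212 to 683 of all genes higher, where the authors called 1268, and 2 to 83 lower, where they called 468. The lone library of a genotype is then assumed to vary like the others. Limma with all libraries called 251 of all genes lower, and 279 with a pseudocount of 2. The sexes pair the samples only as a label shared across genotypes. With sex as a replicate block, 1 of the 30 genes was higher and 2 lower, and 1678 and 518 of all genes. Over the 24 genes described with the deposited fold change, the 144 values from all 4 libraries kept direction and side of the threshold. Of 96 values with a library left out, 10 lost the call, all of Ier3, Ikbke or Traf5, and Traf3 turned to -0.10, in a range of -0.10 to 1.29. Alternatives for the related lists were added after the data were seen. Upstream kinases and adaptors had 5 genes higher and 1 lower as deposited, 3 higher by limma with a pseudocount of 0.5, 4 with a pseudocount of 2 and 5 with the replicate block, and 2 lower with a mean of at least 10; regulators had 2 higher and 2 lower as deposited, 1 higher by limma with either pseudocount, and 1 lower without a filter, re-centred or with the replicate block and 0 by limma with either pseudocount, where Peli1 had no recovered reads and was not tested; target genes had 5 lower as deposited and 2 by each limma fit with all libraries, Cd83 and Junb, since Ltb, Slfn2 and Ccr7 had no recovered reads and were not tested. With 1 library left out, limma called 0 to 2 upstream genes higher and 0 to 1 lower, 0 to 1 regulators higher and 0 to 0 lower, 0 to 5 targets higher and 0 to 1 lower, and 0 to 0 early response genes higher and 0 to 6 lower. The 2 animals per genotype limit every value. The 30 genes have 50 or more reads in each library, while Irak3, Cd83, Tbkbp1 and several markers have fewer, where counting error adds to the spread.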
